A study of Mus musculus with 6 samples.

Results

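The troponins and the tropomyosins of the sarcomere were followed in mouse satellite cells, the resident stem cells of skeletal muscle, on 3 arrays of freshly sorted cells and 3 arrays of cells cultured for 5 days. The family held 10 genes of the 19938 compared: Tnnc1, Tnnc2, Tnni1, Tnni2, Tnni3, Tnnt1, Tnnt2, Tnnt3, Tpm1 and Tpm2. A gene entered through a probe set that the platform annotation gives to that gene alone. Each of the 10 had 1 such probe set, so no choice between probe sets was needed. Both groups came from muscle of the hind limbs, abdomen and triceps of C57BL/6J mice aged 2 months, with cells sorted as positive for beta-1 integrin and CXCR4 and negative for Sca1, CD45, CD31, CD11b and Ter119. Cells of the cultured group grew on collagen type 1 and laminin in F10 medium with 20% donor horse serum, to which bFGF (basic fibroblast growth factor, 5 ng/ml) was added each day, a medium meant for growth. No genetic change and no other treatment is named for either group. The labels speak of 3 mice but do not say which array came from which animal. The p-values therefore measure only the spread between these arrays, and that spread may be technical.

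Troponin is the calcium switch of the thin filament. Its troponin C subunit binds calcium, troponin I holds the filament off until calcium arrives, and troponin T fastens the complex to tropomyosin, the coiled-coil cable that lies along actin and covers or uncovers the sites for myosin. Each troponin subunit is encoded by separate genes for fast skeletal, slow skeletal and cardiac muscle, with the slow skeletal and cardiac forms of troponin C sharing Tnnc1. Embryonic and regenerating muscle is known to use cardiac and slow forms before the adult forms take over.

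All values are log2 expression values as deposited, and every group mean is of 3 arrays (n = 3). The level called background is the 95th percentile over 1194 genes of olfactory and vomeronasal receptors, and it averaged 3.21 on the fresh and 3.30 on the cultured arrays. Of the 10 genes, 9 lay above the background of their array on all 6 arrays. Genes with a mean above 11 were displaced downward on cultured replicates 2 and 3, by a median of -3.33 and -2.87 from their fresh means, and by -0.09 on cultured replicate 1. The highest value of any of the 10 genes was 9.28. Whether genes with a mean below 11 were displaced as well was not tested. The fold changes of the 10 genes did depend on the scaling. After a further quantile normalization the log2 fold change was higher for each of them except Tnni3. Tnnc2 went from -0.31 to 0.22 and Tnnt3 from 0.78 to 1.28, while Tnni3 went from 0.14 to 0.10. The number of arrays limits the precision throughout. In bulk samples such as these, fewer cells of a type and less RNA per cell cannot be told apart.

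In cultured cells 4 of the 10 genes rose and none fell: Tnnc1, the troponin C of slow and cardiac muscle, Tnnt2, the cardiac troponin T, and both tropomyosins, Tpm1 and Tpm2. The fast skeletal forms Tnnc2, Tnni2 and Tnnt3 did not pass the test. Their log2 fold changes were -0.31, -0.13 and 0.78. With limma and Benjamini-Hochberg adjustment over all genes, 0.953% of genes passed higher in culture, 3.37% passed lower, and 4.32% passed in either direction, at an adjusted p of 0.05. Of all the called genes 22.1% were higher in culture, a share that became 38.8% after a further quantile normalization, 10.8% without fresh replicate 3 and 34.7% without cultured replicate 2. The cultured and fresh values did not overlap for 7 of the 10 genes and for 23.2% of all genes. The median log2 fold change of the 10 was 1.30 beside 0.04 over all genes, and 6 of the 10 had a log2 fold change of at least 1 beside 1.12% of all genes. The 10 genes were put together with earlier results of these arrays known, so these shares describe them and are no independent evidence of a direction.

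**Figure D1:**
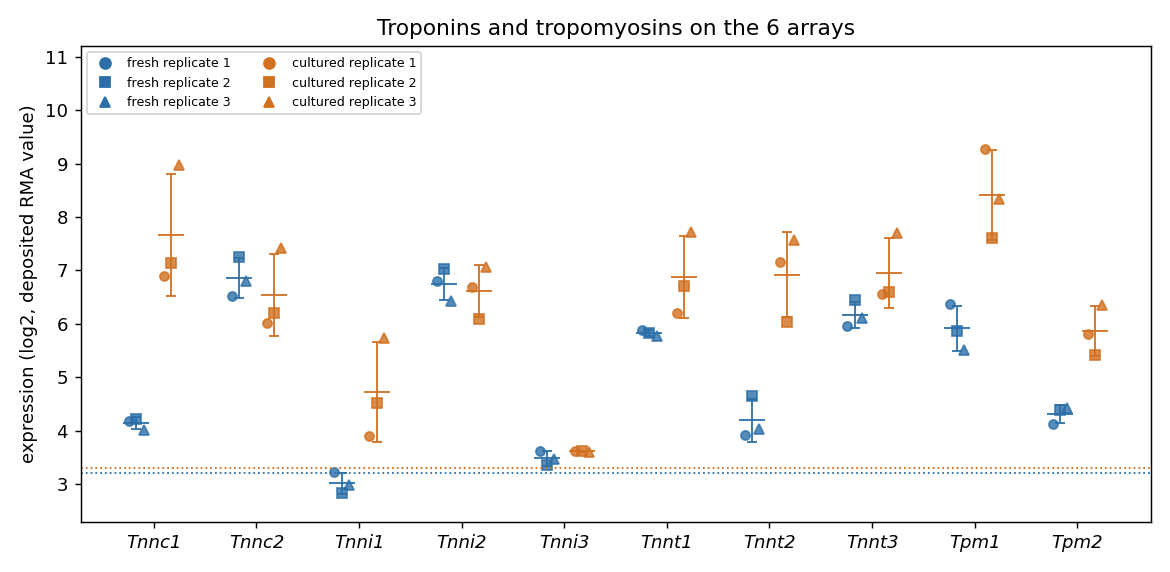
Deposited log2 values (vertical axis) of each gene on the 3 fresh (blue) and 3 cultured (orange) arrays, with 1 marker shape per replicate number. Horizontal ticks are group means, bars are 1 SD, and dotted lines are the background level of each group (3.21 and 3.30); Tnnc1, Tnnt2, Tpm1 and Tpm2 show groups that are well apart, while Tnnc2 and Tnni2 overlap.

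Of the 2 troponin C genes, the calcium sensors, 1 rose and the other did not pass the test. Tnnc1 stood at 4.19, 4.21 and 4.01 in fresh cells and at 6.89, 7.14 and 8.98 in cultured cells. All 3 cultured arrays were above all fresh arrays, and cultured replicate 3 was the highest by a wide margin. The fitted log2 fold change of Tnnc1 was 3.53 ± 0.49 (SE), an 11.6-fold rise with a limma adjusted p of 0.00668. Tnnc2, the calcium sensor of fast fibres, stood at 6.52, 7.25 and 6.80 in fresh cells and at 6.02, 6.20 and 7.42 in cultured cells. Cultured replicates 1 and 2 were below every fresh array and cultured replicate 3 was above them all, so that the groups overlapped. For Tnnc2 the log2 fold change was -0.31 with a 95% interval of -1.17 to 0.55 and an adjusted p of 0.733. Without cultured replicate 3, Tnnc1 was at 2.88 and Tnnc2 at -0.75.

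Among the troponin I genes, the inhibitory subunits, none passed the test. The slow skeletal form Tnni1 was at 3.22, 2.84 and 2.98 in fresh cells and at 3.91, 4.51 and 5.74 in cultured cells. On the fresh arrays it lay within background, and on each cultured array it lay above background. Tnni1 had a log2 fold change of 1.71 ± 0.41 (SE) and an adjusted p of 0.0676. Read against the fresh background level, the difference was at least 1.51. Tnni1 passed at a limma adjusted p of 0.00440 and a log2 fold change of 2.11 without cultured replicate 1. Another 5 settings also brought it past the threshold, such as quantile normalization, at an adjusted p of 0.0386. In 1 of these 5, dim genes were left out (adjusted p = 0.0493). That filter asked for values above background on at least 3 arrays. Tnni1 met it only through the 3 cultured arrays, where it was high, so this pass is no support.

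Tnni2, the inhibitory subunit of fast fibres, was at 6.80, 7.03 and 6.44 in fresh and at 6.69, 6.10 and 7.07 in cultured cells. The groups overlapped almost completely. Its log2 fold change was -0.13, with a 95% interval of -0.75 to 0.48. Tnni3, the cardiac form, was at 3.62, 3.36 and 3.47 in fresh and at 3.62, 3.63 and 3.61 in cultured cells. These values were only slightly above background and were nearly alike on the cultured arrays. For Tnni3 the difference in log2 was 0.14 with a 95% interval of -0.17 to 0.44. Cultured cells thus showed the cardiac troponin T at a raised level beside a cardiac troponin I close to background.

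All 3 troponin T genes, whose products tie troponin to tropomyosin, had higher values on each cultured array than on any fresh array, but only Tnnt2 passed the test. Tnnt2 was at 3.91, 4.66 and 4.03 in fresh and at 7.15, 6.03 and 7.57 in cultured cells. Here cultured replicates 1 and 3 were the high ones. The log2 fold change of Tnnt2 was 2.72 ± 0.39 (SE), a 6.59-fold rise with an adjusted p of 0.00735. Tnnt1, the slow skeletal form, was at 5.89, 5.82 and 5.77 in fresh and at 6.20, 6.71 and 7.72 in cultured cells. The fresh values were tightly grouped, with an SD of 0.06, and the cultured values spread with an SD of 0.77. In the fit Tnnt1 had a log2 fold change of 1.05, which did not pass (adjusted p = 0.159). Without cultured replicate 3 it was at 0.63 (adjusted p = 0.237). It passed without cultured replicate 1, at 1.39 and an adjusted p of 0.0155, and with array weights, at 1.49 and 0.0335. Tnnt3, the fast skeletal form, was at 5.97, 6.44 and 6.10 in fresh and at 6.56, 6.60 and 7.71 in cultured cells. Cultured replicates 1 and 2 were barely above the highest fresh array. Tnnt3 had a log2 fold change of 0.78 (adjusted p = 0.243), and of 0.41 without cultured replicate 3.

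Both tropomyosin genes rose. Tpm1, alpha-tropomyosin, which is the main form of heart and fast muscle and is also spliced into non-muscle forms, was at 6.36, 5.87 and 5.52 in fresh and at 9.28, 7.60 and 8.34 in cultured cells. Cultured replicate 1 was the highest, unlike for the troponins. The log2 fold change of Tpm1 was 2.49 ± 0.41 (SE), a 5.61-fold rise with an adjusted p of 0.0138. The call was lost without fresh replicate 2, at an adjusted p of 0.0698, without fresh replicate 3, at 0.0748, and without cultured replicate 3, at 0.0690, while the log2 fold change stayed between 2.05 and 2.89 whichever array was left out. A value per gene does not tell muscle from non-muscle splice forms. Tpm2, beta-tropomyosin, was at 4.13, 4.39 and 4.43 in fresh and at 5.81, 5.42 and 6.36 in cultured cells. The groups were well apart and both were tight. Tpm2 rose 2.92-fold, a log2 fold change of 1.55 ± 0.24 (SE) with an adjusted p of 0.0104.

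Tpm3 and Tpm4, the remaining tropomyosin genes, did not pass the test. Tpm3, which gives the slow-fibre and several cytoskeletal tropomyosins, was at 8.02, 8.48 and 8.08 in fresh and at 8.49, 6.90 and 6.86 in cultured cells. Its log2 fold change was -0.78 with an adjusted p of 0.393, by the brightest of its 4 probe sets. Tpm4, a cytoskeletal tropomyosin, was at 7.81, 7.79 and 7.44 in fresh and at 8.31, 6.44 and 6.68 in cultured cells. That of Tpm4 was -0.54 with an adjusted p of 0.598. For both genes cultured replicate 1 lay at or above the fresh arrays and cultured replicates 2 and 3 lay below them. Bright genes were displaced in the same way on these 2 arrays, and the part of that displacement in these values was not tested.

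**Figure D2:**
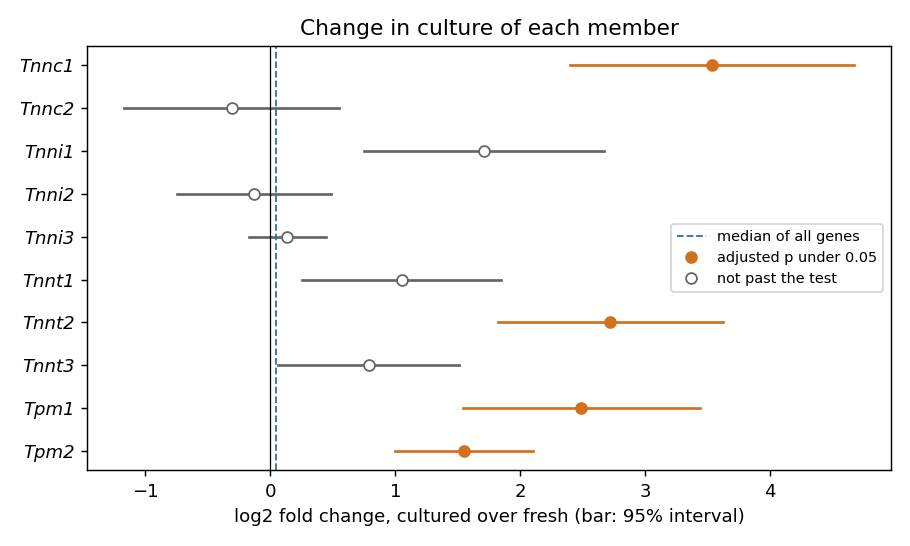
Log2 fold change of cultured over fresh cells for each of the 10 genes (horizontal axis), with 95% intervals from limma. Filled orange points passed an adjusted p of 0.05, open grey points did not, and the dashed line is the median of all genes, 0.04; the 4 filled points lie between 1.55 and 3.53.

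The isoforms of a subunit were compared with each other within each array, which asks whether they changed unequally. The value for a pair is the log2 value of the first gene minus that of the second on the same array. It does not say which transcript is more abundant, since probe sets differ in how strongly they bind. Of 8 such pairs, 5 had cultured differences wholly outside the fresh differences. Among single genes the groups did not overlap for 23.2%, and the share among pairs of other genes was not measured. Pairs of a family share genes, such as Tnni1 and Tnnt2. The 8 are therefore not independent of each other or of the changes of the single genes. For Tnnc1 minus Tnnc2 the difference was -2.33, -3.03 and -2.80 in fresh cells and 0.88, 0.94 and 1.56 in cultured cells. The shift of this pair, 3.84 ± 0.30 (SE), was the largest of the 8. The exact two-sided permutation test gave p = 0.10 for each of these 5 pairs, the smallest that 3 against 3 arrays allow, and 0.16 after Benjamini-Hochberg adjustment over the 8 pairs. No pair could therefore pass a threshold of 0.05.

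The slow Tnni1 lay within background on every fresh array, so its shifts are given as bounds, with its fresh values set to the background of each array. It was higher in culture by at least 1.65 relative to the fast Tnni2 and by at least 1.38 relative to the cardiac Tnni3. Among the troponin T genes, the cardiac Tnnt2 was higher in culture relative to the fast Tnnt3 by 1.94 ± 0.35, from differences of -2.06, -1.78 and -2.08 in fresh to 0.59, -0.57 and -0.13 in cultured cells. The slow Tnnt1 minus the cardiac Tnnt2 shifted by -1.67 ± 0.54. In these pairs the fresh and cultured arrays did not overlap. The slow Tnnt1 and the fast Tnnt3 overlapped, with a shift of 0.26 ± 0.21 and an exact permutation p of 0.30. Tnni2 minus Tnni3 shifted by -0.27 ± 0.36, with an exact permutation p of 0.50, and Tpm1 minus Tpm2 by 0.94 ± 0.57, with an exact permutation p of 0.30.

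**Figure D3:**
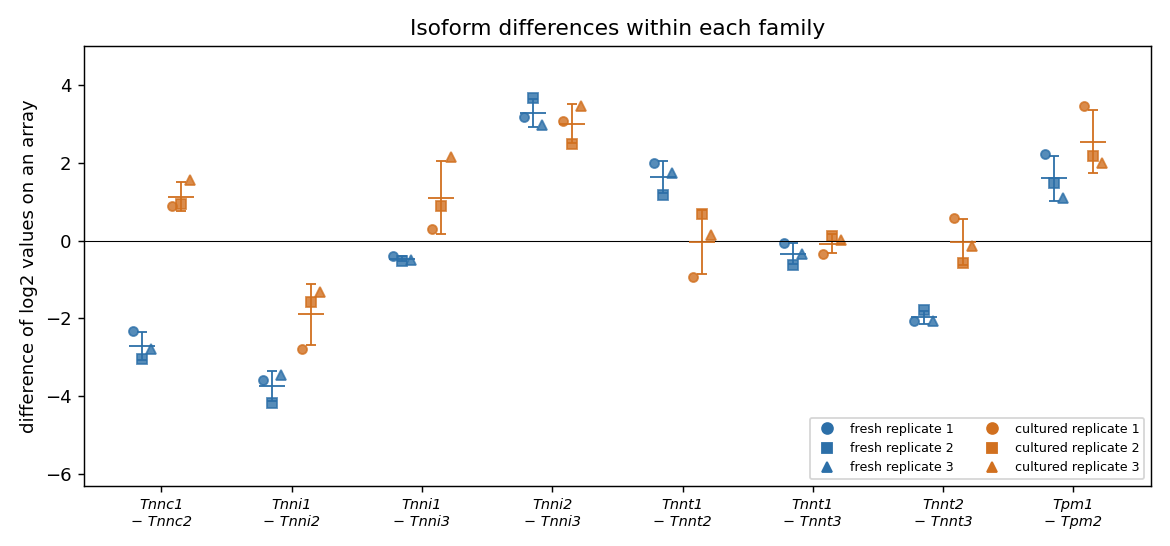
Difference of the log2 values of 2 isoforms on the same array (vertical axis) for the 8 pairs within troponin C, troponin I, troponin T and tropomyosin, fresh arrays in blue and cultured arrays in orange. Ticks are group means and bars 1 SD; Tnnc1 minus Tnnc2 moves from a mean of -2.72 to 1.13, while Tnnt1 minus Tnnt3 overlaps between the groups.

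Troponin I and troponin T genes lie side by side in the genome. The slow Tnni1 lies near the cardiac Tnnt2, the cardiac Tnni3 near the slow Tnnt1, and the fast Tnni2 near the fast Tnnt3. In RefSeq's GRCm38.p6 gene order no protein-coding gene starts between Tnni3 and Tnnt1, only Lad1 starts between Tnni1 and Tnnt2, and only Lsp1 between Tnni2 and Tnnt3. Tnni3 was at a log2 fold change of 0.14 beside 1.05 for Tnnt1, and Tnni2 at -0.13 beside 0.78 for Tnnt3. Tnni1 was within background on the fresh arrays, so its difference is at least 1.51, beside 2.72 for Tnnt2, and both were higher on every cultured array. Whether the fold changes of neighbours differ was not tested.

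The cultured arrays differed among themselves. Of the 10 genes, 8 had their highest cultured value on cultured replicate 3, 1 on cultured replicate 1 (Tpm1) and 1 on cultured replicate 2 (Tnni3, where the 3 arrays were nearly equal). Relative to the fresh mean, Tnnc1 was up by 2.75, 3.00 and 4.84 on cultured replicates 1, 2 and 3. Tnni1 was up by 0.89, 1.50 and 2.73 and Tnnt1 by 0.37, 0.88 and 1.89. The fast forms also stood highest on cultured replicate 3, where Tnnc2 was at 0.57, Tnni2 at 0.32 and Tnnt3 at 1.53 above their fresh means, against -0.84, -0.06 and 0.39 on cultured replicate 1. Tnnt2 was at 2.95, 1.84 and 3.37, and Tpm1 at 3.36, 1.68 and 2.42. Thus Tnnt2 and Tpm1 were lowest on cultured replicate 2, where Tnnc1, Tnni1 and Tnnt1 were in the middle. The median difference of the 10 genes from their fresh means was 0.64, 1.00 and 1.96 on cultured replicates 1, 2 and 3. The median log2 fold change of the 10 was 1.30 with all arrays and 0.91 without cultured replicate 3.

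**Figure D4:**
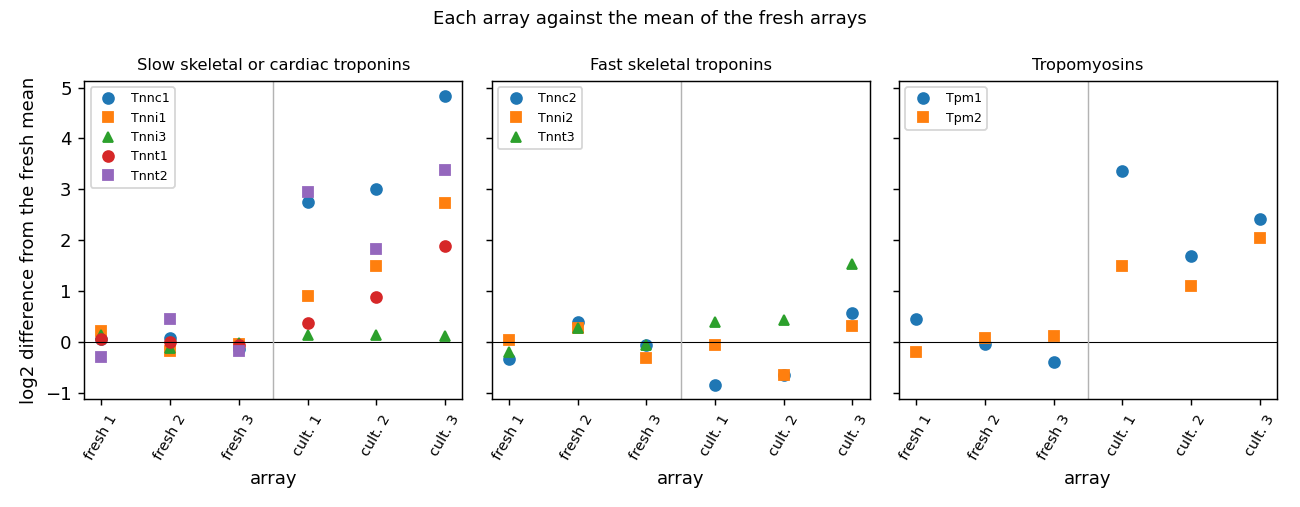
Log2 value of each gene on each array minus its mean over the 3 fresh arrays (vertical axis), for the slow or cardiac troponins, the fast troponins and the tropomyosins; the grey line separates fresh from cultured arrays. The slow and cardiac troponins lie above 0 on all cultured arrays, Tnni3 by only 0.13 to 0.15, and Tnnc1 reaches 4.84 on cultured replicate 3.

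The sequences upstream of the genes that rose are shown because these genes moved in the same direction, beside that of Tnnc2, which did not pass the test. RefSeq windows of build GRCm38.p6 were found for 8 of the 10 genes and not for Tnni2 and Tnnt3, and the 250 bases before the annotated start are printed 5′ to 3′. For genes with several annotated starts the most upstream window was used. The windows are chr14:31208062-31208311 (plus strand) for Tnnc1, chr1:135836084-135836333 (plus strand) for Tnnt2, chr9:67049214-67049463 (minus strand) for Tpm1, chr4:43523555-43523804 (minus strand) for Tpm2 and chr2:164779735-164779984 (minus strand) for Tnnc2. Capitals mark 2 motifs searched on both strands, the E-box and the MCAT motif. The E-box, CANNTG, is bound by myogenic factors such as MyoD and myogenin. The MCAT motif, CATTCC or its reverse complement GGAATG, is bound by TEAD factors.
Tnnc1: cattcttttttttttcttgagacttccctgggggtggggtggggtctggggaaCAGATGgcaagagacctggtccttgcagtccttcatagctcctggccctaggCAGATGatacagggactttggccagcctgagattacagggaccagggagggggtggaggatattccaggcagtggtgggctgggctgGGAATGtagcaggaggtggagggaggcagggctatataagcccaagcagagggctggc
Tnnt2: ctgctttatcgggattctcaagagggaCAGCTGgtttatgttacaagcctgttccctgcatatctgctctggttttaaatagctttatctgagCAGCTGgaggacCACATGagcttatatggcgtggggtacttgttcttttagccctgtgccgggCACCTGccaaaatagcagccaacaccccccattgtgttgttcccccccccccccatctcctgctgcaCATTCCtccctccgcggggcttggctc
Tpm1: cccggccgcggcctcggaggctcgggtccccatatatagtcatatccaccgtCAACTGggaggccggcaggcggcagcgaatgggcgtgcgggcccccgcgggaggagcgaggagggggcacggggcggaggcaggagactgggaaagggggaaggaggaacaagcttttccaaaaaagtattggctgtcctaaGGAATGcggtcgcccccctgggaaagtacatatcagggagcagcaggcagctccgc
Tpm2: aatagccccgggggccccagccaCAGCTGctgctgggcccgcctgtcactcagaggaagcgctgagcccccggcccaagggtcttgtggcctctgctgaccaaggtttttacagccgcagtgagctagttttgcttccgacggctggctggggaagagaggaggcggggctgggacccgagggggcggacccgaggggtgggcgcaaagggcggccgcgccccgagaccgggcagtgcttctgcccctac
Tnnc2: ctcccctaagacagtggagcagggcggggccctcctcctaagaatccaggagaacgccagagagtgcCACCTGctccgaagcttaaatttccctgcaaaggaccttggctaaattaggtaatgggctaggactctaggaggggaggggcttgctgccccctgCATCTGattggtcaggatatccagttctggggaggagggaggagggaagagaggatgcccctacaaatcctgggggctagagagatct
An MCAT motif was present in the windows of Tnnc1 (-58 to -53, counted from the start), Tpm1 (-56 to -51) and Tnnt2 (-27 to -22). No match was present in the windows of Tpm2, Tnnc2, Tnni1, Tnni3 and Tnnt1. Over all 32841 windows of this length, 12.6% held the motif. An E-box was present upstream of all 8 genes, and in 66.2% of all windows, so this is a common feature. The form CAGCTG, which is also an E-box, was found for Tnnt2 (-223 and -157), Tpm2 (-227) and Tnni1 (-68) and in 13.0% of all windows. Neither the MEF2 motif nor the CArG box was found in any of the 8 windows, and they were present in 1.69% and 1.47% of all windows. The motifs were chosen with the results known, and a match of letters is not a binding site.

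Genes with the most similar pattern were found for the 3 genes with the largest fold changes, as the smallest root mean square difference in log2 values over the 6 arrays after centring on the fresh mean. Nearest to Tnnc1 were the cardiac actin Actc1 at a difference of 0.52, the histone gene H2ac4 at 0.63, the embryonic and atrial myosin light chain Myl4 at 0.67, the myogenic factor Myog at 0.91 and the fast regulatory light chain Mylpf at 0.92. Actc1, Myl4, Myog and Mylpf were likewise highest on cultured replicate 3. Nearest to Tnnt2 were the p53 target Ccng1 at 0.42, the acetylcholine receptor subunit Chrna1 at 0.43, the ribonucleotide reductase subunit Rrm2 at 0.48, the muscle enolase Eno3 at 0.49 and H2ac4 at 0.52. Nearest to Tpm1 were the centromere gene Cenpk and the protease inhibitor Cst6, both at 0.35, then Chrna1 at 0.36, Eno3 at 0.37 and the asparagine synthetase Asns at 0.42. Cenpk and Cst6 lay within background on every fresh array, and Cenpk also on cultured replicate 2, at 3.32. Their likeness to Tpm1 thus rests on values near the floor. Cenpk did not pass the test (limma adjusted p = 0.0648). Of the 5 genes nearest to Tnnc1, 4 encode muscle proteins or a muscle regulator. The genes nearest to Tnnt2 and Tpm1 were more mixed. Likeness over 6 arrays in 2 groups mostly reflects the size of the change.

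The other parts of the contractile apparatus were described with lists. Of 17 genes of the thin filament and its length regulators, 1 rose and none fell, with a median log2 fold change of 0.33. It was Actc1, at 2.87 ± 0.62 (SE) and an adjusted p of 0.0445. The adult skeletal actin Acta1 was at 0.33, which did not pass. Nebulin, Neb, was within background on the fresh arrays, at 3.03, 3.14 and 3.00, and at 3.95, 3.63 and 5.52 on the cultured arrays, and did not pass (adjusted p = 0.169). Of 19 thick filament genes 3 rose and none fell, with a median of 0.23. They were Myl4 at 2.65, Mylpf at 2.27 and the myosin-binding protein Mybph at 1.10, the last named after its value was seen. Of 20 Z-disc and titin genes none rose and 2 fell, with a median of 0.16. They were the small heat shock protein Cryab at -3.36 and the intermediate filament Des at -1.21. Of 18 non-muscle partners of actin and tropomyosin 2 rose and 1 fell, with a median of 0.09: the myosin light chain Myl9 at 1.84 and the calponin Cnn2 at 1.05 rose and the calponin Cnn3 fell by 1.43 on the log2 scale.

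Many of these list calls were lost when an array was left out. Of the 35 called genes of the pathway and marker lists, 16 kept their call whichever array was left out, among them Myl9, Cryab, Myf5, Mrln, Eno3, Chrna1 and Pax7. Actc1 and Mylpf lost theirs when any of the 3 fresh arrays was left out, at adjusted p of up to 0.149 and 0.145, while the log2 fold change of Actc1 was then 2.79 to 2.92. Without cultured replicate 3 they kept their calls, at log2 fold changes of 2.03 and 1.63. Myl4 and Myog lost theirs without any fresh array or cultured replicate 2 (highest adjusted p 0.152 and 0.166), and Tead2 lost its call without each of the 6 arrays in turn, with a log2 fold change of 0.63 to 0.79. Jph2 lost its call without cultured replicate 3 (adjusted p = 0.0642). Cnn2, Cnn3, Mybph, Des, Tcf4 and Ckm also lost theirs without at least 2 of the arrays.

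Fibre-type genes outside the troponins were counted in the same way. Of 16 other fast-fibre genes 2 rose, Eno3 at 2.27 and Mylpf, and none fell, with a median of -0.03. Of 13 other slow-fibre genes none passed in either direction, with a median of 0.11. The slow myosin heavy chain Myh7 was at a log2 fold change of 0.19 and the slow light chains Myl2 and Myl3 at -0.13 and -0.09, none of them past the test. Of 20 muscle calcium handling genes 1 rose, the junctional protein Jph2 at 1.57, and 1 fell, the calcium pump inhibitor Mrln at -3.69, with a median of 0.14. Of 24 muscle transcription factors 2 rose and 4 fell, with a median of -0.01. Myog rose by 2.28 and the TEAD factor Tead2 by 0.71, while Myf5, a factor of early myogenic cells, was at -1.91 and the E-protein Tcf4 at -1.30.

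Markers of cell types were measured beside these changes. Of 13 quiescent satellite cell markers 10 fell and none rose. No marker of that list lay within background on all fresh arrays, and Pax7 was at 6.22, 6.66 and 6.52 in fresh and 5.30, 5.01 and 5.11 in cultured cells. Of 11 markers of differentiating myocytes 4 rose and none fell: Actc1, Chrna1, Myl4 and Myog. Their summed log2 level was 45.3 to 46.6 on the fresh and 55.3 to 69.1 on the cultured arrays, and it was highest on cultured replicate 3, the array on which 8 of the 10 troponin and tropomyosin genes were highest. The embryonic myosin heavy chain Myh3 was at 3.52, 4.47 and 6.46 on cultured replicates 1, 2 and 3, and within background on all fresh arrays. The part of these markers in the troponin values was not tested.

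Of 14 mature fibre markers 1 rose, Eno3, and 1 fell, muscle creatine kinase Ckm at -0.80. Their summed level was 58.1 to 62.5 on the fresh and 57.3 to 64.7 on the cultured arrays. None of the 14 lay within background on all 3 fresh arrays, where the median marker was at 4.02, 4.32 and 4.07. The adult fast myosin heavy chains Myh1, at 2.70, 3.21 and 3.11, and Myh4, at 2.61, 3.69 and 2.79, were above the background of fresh replicate 2 (3.17) and below that of the other fresh arrays. The fast troponins Tnnc2 and Tnni2 stood at means of 6.86 and 6.75 on the fresh arrays, and the part of fibre RNA in these values was not tested. Of 12 heart muscle markers none passed in either direction. On all fresh arrays 7 of the 12 lay within background, and on all cultured arrays 5 did. Those 5 were Myh6, Nppa, Tbx5, Tbx20 and Pln, which lay within background on every array. The summed level of the 12 was 38.1 to 39.8 on the fresh and 40.5 to 41.0 on the cultured arrays. How these values relate to the rise of the cardiac forms Tnnc1 and Tnnt2 was not tested.

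Of 12 smooth muscle and pericyte markers none rose and 1 fell, Des. Only 1 of the 12, Rgs5, lay within background on all fresh arrays, and only Rgs5 did so on all cultured arrays. The summed level of the 12 was 51.2 to 53.9 on the fresh and 48.2 to 52.5 on the cultured arrays. Smooth muscle also expresses the tropomyosins, and the part of such cells in their values was not tested. Of 9 fibro-adipogenic markers 5 fell and none rose, with summed levels of 49.3 to 54.1 and 34.5 to 35.2. Of 10 endothelial markers 1 fell and none rose, with Pecam1, Cdh5 and Kdr within background on every array. Of 10 immune markers none passed, and Ptprc, Adgre1 and Csf1r lay within background on every array. None of 6 Schwann cell and none of 8 tendon cell markers passed. The summed level of the tendon markers was 36.7, 27.9 and 26.5 on fresh replicates 1, 2 and 3 and 28.5 to 29.4 on the cultured arrays, so fresh replicate 1 stood above the others, and its part in the values was not tested.

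The size of the fold changes under other scalings and array choices is shown for all 10 genes. Tnnc1, Tnnt2 and Tpm2 passed the test under all 14 alternatives, with Tnnc1 between 2.88 and 4.23, Tnnt2 between 2.39 and 3.16 and Tpm2 between 1.30 and 1.79. Their highest limma adjusted p was close to the threshold, at 0.0424, 0.0466 and 0.0490, each time with a fresh array left out. The mean of probe sets is 1 of the 14 and leaves the values of these genes unchanged. Tpm1 passed under 11 of the 14. Tnni1 passed under 6, of which 1 was the filter on dim genes that it met only through the cultured arrays. Tnnc2 and Tnni2 passed under none, and the sign of both depended on the scaling: after quantile normalization they were at 0.22 and 0.38.

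**Figure D5:**
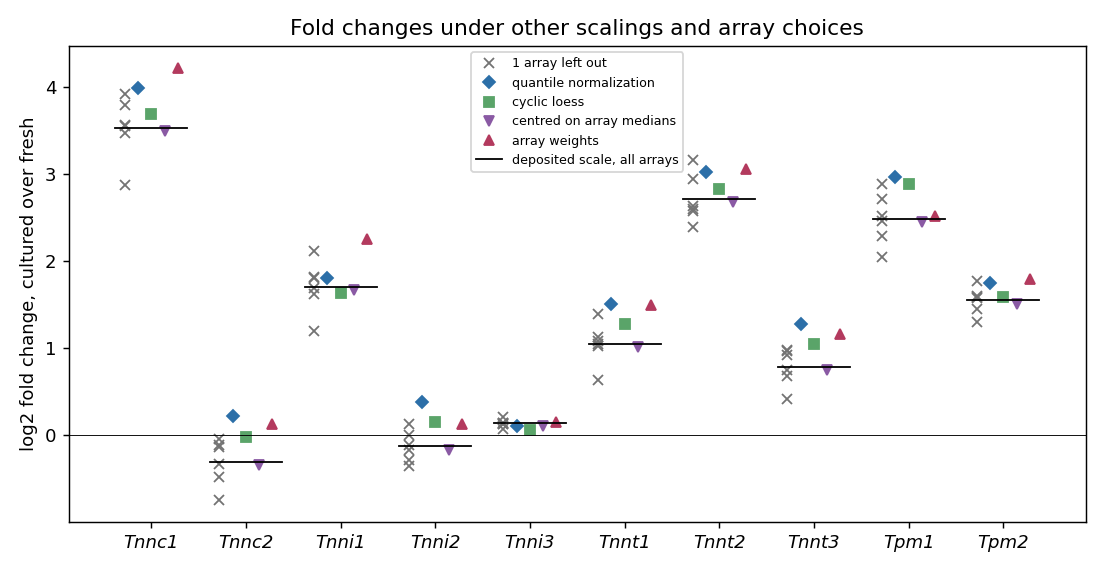
Log2 fold change of cultured over fresh cells (vertical axis) for each gene on the deposited scale with all arrays (black line), with 1 array left out at a time (crosses) and under other scalings and array weights (coloured markers). Tnnc1, Tnnt2, Tpm1 and Tpm2 stay above 1 throughout, while Tnnc2 and Tnni2 lie on both sides of 0.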

How the data were processed

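Per the labels' protocols, biotin-labelled RNA (Affymetrix WT kit) was hybridised to whole-transcript arrays. The deposited values, 35556 probe sets on each of 6 arrays, are on a log2 scale. RMA and the package oligo were used, per the submitters' processing notes, with no version given. RMA normalizes arrays to each other and compresses differences near background. The deposited arrays still differed for genes with a mean above 11. The median shift of these genes was -0.09, -3.33 and -2.87 on cultured replicates 1, 2 and 3. No genome build is given in the sources used here.

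Gene names came from the platform annotation, with symbols updated by gene ID to GRCm38.p6 (21698 of 21789 probe sets with 1 gene matched; 1621 had several genes and 12146 were unlisted). The probe set with the highest mean was kept per gene. Tests used limma 3.58.1 in R 4.3.3 (lmFit, eBayes, group as the only term) with Benjamini-Hochberg adjustment over 19938 genes, and exact permutation tests in scipy 1.17.1. Alternatives were a replicate block, quantile normalization, cyclic loess, median centring, a trended robust prior, array weights, a filter on dim genes, the mean of probe sets, and leaving out each array. Members and lists were chosen with earlier results of these data known. Named genes are the members, the 2 called genes with the largest change in each direction per pathway list, and the nearest profiles; others were named after their values were seen. On data simulated for cultured against fresh over 19938 genes, 29 of 50 genes changed by 1 on the log2 scale were recovered, 45 of 50 at 2, and 11 of the genes left as they were came out as called. Same-numbered fresh and cultured arrays did not deviate together (correlations of -0.09, -0.14 and 0.03).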

Additional observations from a re-analysis of the deposited data

How the results depend on the processing

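Of the 10 genes, 4 passed the test on the deposited scale and 3 to 6 did so with 1 array left out. Their median log2 fold change was 1.26 to 1.64 under the other settings with all arrays, and 0.91 to 1.48 with 1 array left out. Over all genes 861 passed, beside 1511 after quantile normalization, 1492 with cyclic loess, 1742 with array weights and 448 to 1517 with 1 array left out (lowest without cultured replicate 3, highest without cultured replicate 1, and 478 and 471 without fresh replicates 2 and 3). The cause was not tested. Of the 8 isoform pairs, 6 did not overlap between the groups under quantile normalization. The mean of probe sets leaves the pairs as they were, since each gene had 1 probe set. With 1 array left out, 5 to 6 pairs did not overlap. Leaving out an array cannot make separate groups overlap, so a count below 5 was not possible there. Differences near 0 changed sign: Tnnc2 was at 0.22 after quantile normalization and 0.12 with array weights, and Tnni2 at 0.38 after quantile normalization, 0.15 with cyclic loess, 0.12 with array weights, and, with 1 array left out, from -0.36 to 0.13 (0.0038 without fresh replicate 2). The shift of Tnni2 minus Tnni3 was 0.28 after quantile normalization. None of these passed a test. With the replicate number as a block, 662 genes passed, and the same 4 of the 10 did; the numbers are not shown to pair the arrays, and not every array correlated best with its own number. Values near background are compressed by RMA, so the difference of Tnni1, and any difference of Tnni3, may be understated. This was not tested.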
